A study of Mus musculus with 4 samples.

Results

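The genes described here encode the constitutive proteasome and the factors that assemble, cap and inhibit it. They were chosen by gene name from the deposited count table, taking names of the form Psma, Psmb, Psmc or Psmd followed by a digit together with Psme3, Psme4, Psmf1, Psmg1, Psmg2, Psmg3, Psmg4 and Pomp, and leaving out the immunoproteasome genes Psmb8, Psmb9 and Psmb10 and the thymic gene Psmb11. This gave 44 of the 21834 genes in the table, and all 44 passed the filter on low counts. Psmc3ip matched by name but encodes a partner of the meiotic recombination machinery, not a proteasome protein, so 43 members are proteasome genes.

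RNA came from bone marrow derived monocytes (BMDMs) of mice, cultured for 3 days with RANKL, the cytokine that drives such precursors towards osteoclasts, the cells that resorb bone. The groups were 2 libraries from mice with a conditional knockout of Nat10 (Nat10 cKO) and 2 libraries from WT mice. Both groups received the same differentiation treatment, and before lysis the cells of both were washed in cycloheximide, which blocks translation. Nat10 is the RNA acetyltransferase that makes N4-acetylcytidine, and the sources used here give neither the Cre driver, the deleted exons, nor the age and number of the mice.

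The proteasome degrades proteins tagged with ubiquitin. Its 20S core is a barrel of outer alpha rings and inner beta rings, and the protease sites sit inside on the beta subunits Psmb5, Psmb6 and Psmb7. A 19S particle caps the barrel, with a ring of ATPases that unfold the substrate and a set of non-ATPase subunits that bind and remove ubiquitin, and core and cap together form the 26S proteasome. Dedicated chaperones guide assembly of each part. In cells of the macrophage lineage, cytokines can replace the 3 catalytic subunits with the immunosubunits Psmb8, Psmb9 and Psmb10. In osteoclast precursors, degradation of I-kappa B proteins by the proteasome is a step of NF-kappa B signalling downstream of RANKL.

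The libraries held 10037338 to 14097638 counts, and the members' own totals over the 4 libraries ran from 59 counts (Psma8 and Psmc3ip) to 15833 counts (Psmb6). Nat10 itself had 15.9 and 14.3 CPM in Nat10 cKO, against 16.8 and 18.6 CPM in WT (184 and 205 counts, against 165 and 238). Counted over the whole gene its groups did not overlap, but its log2 fold change of -0.24 (95% interval -0.56 to 0.08) did not pass (edgeR adjusted p = 0.263), and the groups are called by their labels. For the marker counts that follow, 14.4% of all 11448 tested genes were called higher and 14.4% lower. Of 10 osteoclast markers, 7 were higher and 2 lower in Nat10 cKO (summed level 6304 and 7028 CPM, against 4885 and 5153 CPM in WT). The summed level of 8 macrophage markers was 29627 and 33540 CPM in Nat10 cKO, against 18606 and 20676 CPM in WT (5 of 8 higher and 2 lower). Most of that sum was Lyz2 (23594 and 27535 CPM, against 14102 and 15928 CPM). Mrc1, Cx3cr1 and Mertk had far smaller CPM than Lyz2 in both groups, and they moved differently between the groups. Cx3cr1 was called higher in Nat10 cKO (log2 fold change 2.04) and Mrc1 was called lower (-1.51). Mertk was not called, with 18.6 and 20.5 CPM in Nat10 cKO, against 19.7 and 20.4 CPM in WT. The summed level of 10 stromal and osteoblast markers was 1019 and 982 CPM in Nat10 cKO, against 263 and 252 CPM in WT (8 of 9 tested higher, with Sp7 at 0 in WT), and that of 8 neutrophil markers was 805 and 907 CPM, against 499 and 485 CPM (4 of 6 tested higher and 1 lower). Of 9 cell cycle genes, 7 were higher and 1 lower (310 and 328 CPM, against 227 and 219 CPM). Without WT replicate 2 the osteoclast list had 4 higher and 0 lower, and without WT replicate 1 the macrophage list had 3 higher. These lists move with the genotype, and their part in the values below was not tested. In bulk RNA, fewer cells of a type and less RNA per cell cannot be told apart.

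Genes from every part of the 26S particle and from both sets of chaperones fell in Nat10 cKO libraries, and no member was called higher. In the edgeR quasi-likelihood test over all genes, 18 of the 44 members (40.9%) were lower at an adjusted p under 0.05 and 0 were higher, while among all 11448 tested genes 14.4% were lower and 14.4% higher. At an unadjusted p under 0.05, 22 members were lower (background 19.4%) and 0 higher (background 19.8%). DESeq2 called 15 lower (34.1%, background 10.6%) and 0 higher. The median log2 fold change (Nat10 cKO minus WT) of the members was -0.27, beside 0.0075 over all tested genes, and 36 of 44 (81.8%) lay below 0, beside 49.1% of all tested genes. Both Nat10 cKO libraries lay below both WT libraries for 27 members (61.4%, background 31.3%) and above them for 2 members, Psmc6 and Psme4 (background 32.3%). The called falls were modest, from -0.60 to -0.28 on the log2 scale, which is a relative level lower by 33.8% to 17.9%. The number of calls rested on both WT libraries, and it fell among members and among all tested genes when either was left out. The member median was then -0.27 without WT replicate 1 and -0.26 without WT replicate 2. It was -0.23 and -0.30 without Nat10 cKO replicate 1 or 2. The number of calls also depended on scaling, with 11 members lower under upper-quartile factors (25%, background 9.7%). There 66.9% of all calls were higher, against 50% under TMM factors. No member was higher under any alternative.

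**Figure D1:**
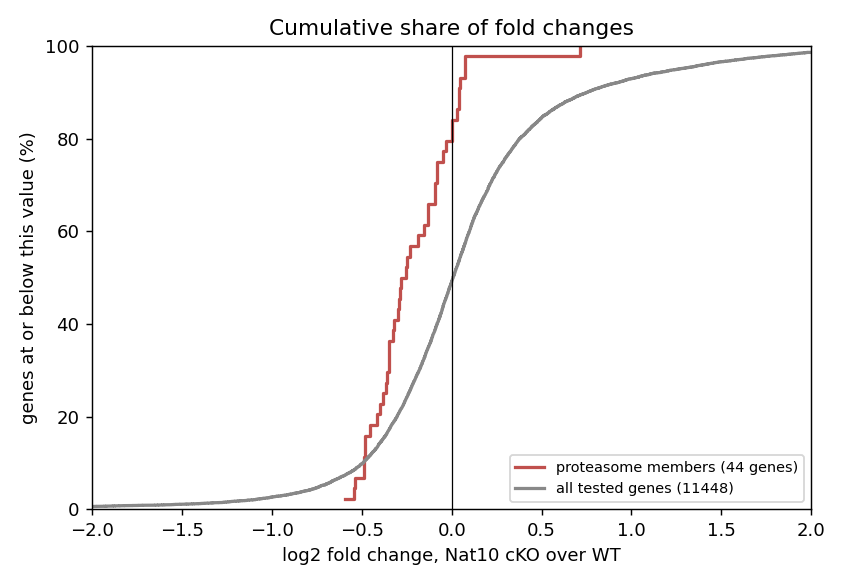
Cumulative share of genes (vertical axis, percent) at or below each log2 fold change of Nat10 cKO over WT (horizontal axis) for the 44 members (red) and all 11448 tested genes (grey). The member curve lies to the left through most of its range, with a median of -0.27 beside 0.0075, and it ends near 0 apart from Psmc3ip at 0.71.

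Summed over groups of subunits, each part of the particle had a lower level in both Nat10 cKO libraries than in both WT libraries. The 32 subunits of the 26S particle summed to 4406 and 4566 CPM in Nat10 cKO, against 5363 and 5402 CPM in WT, a log2 ratio of group means of -0.26. The alpha ring stood at 979 and 1059 CPM against 1144 and 1151 CPM, and the beta ring at 1045 and 1167 CPM against 1376 and 1427 CPM. The 19S ATPases stood at 719 and 707 CPM in Nat10 cKO, against 907 and 898 CPM in WT, so the gap between groups was wide beside that between replicates. The other 19S subunits stood at 1664 and 1633 CPM against 1936 and 1925 CPM. Nat10 cKO replicate 2 was above replicate 1 for both rings of the core, whereas the 2 libraries were close for both parts of the 19S cap. The log2 ratios were -0.34 for the beta ring and for the ATPases, -0.23 for the other 19S subunits and -0.17 for the alpha ring. These sums are descriptions with no test.

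**Figure D2:**
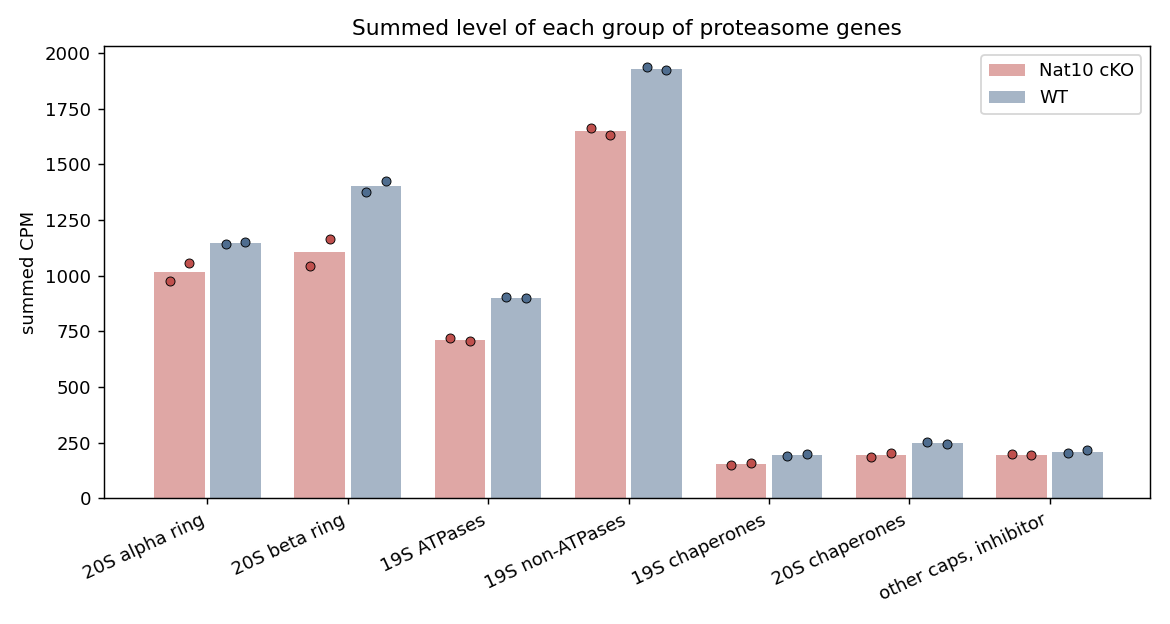
Summed CPM (vertical axis, linear from 0) of each group of proteasome genes in Nat10 cKO (red, left bar) and WT (blue, right bar), with bars at the mean of 2 libraries and points for the libraries. The Nat10 cKO points lie below the WT points in all 7 groups, and the groups come closest for the other caps and inhibitor (198 and 195 CPM against 205 and 216 CPM).

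In the beta ring, the genes of 2 catalytic subunits fell and the gene of the other did not pass the test. Psmb5, which carries the chymotrypsin-like site targeted by proteasome inhibitors such as bortezomib, had 152 and 174 CPM in Nat10 cKO, against 231 and 244 CPM in WT (log2 fold change -0.54, SE 0.10, edgeR adjusted p = 0.000437). It lies on chromosome 14 at 54851576 to 54855479 (GRCm39, minus strand, ENSMUSG00000022193). Psmb6, which carries the caspase-like site, had 252 and 284 CPM in Nat10 cKO, against 362 and 415 CPM in WT (-0.54, SE 0.101, edgeR adjusted p = 0.000527), and lies on chromosome 11 at 70416193 to 70418684 (ENSMUSG00000018286). For both genes the groups stood clear of each other. Psmb7, which carries the trypsin-like site (chromosome 2, 38478048 to 38534099, ENSMUSG00000026750), had 143 and 157 CPM in Nat10 cKO, against 182 and 171 CPM in WT. Psmb7 overlaps Nek6 on the opposite strand (1635 counts over the 4 libraries, against 7886 for Psmb7). Its groups did not overlap either, but its log2 fold change of -0.23 (95% interval -0.44 to -0.03) did not pass (edgeR adjusted p = 0.0867).

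Among the non-catalytic beta subunits, Psmb4 fell (163 and 186 CPM in Nat10 cKO, against 221 and 227 CPM in WT, log2 fold change -0.36, SE 0.0989, edgeR adjusted p = 0.00995). Psmb2 marked the other end of the ring, with 93.0 and 99.5 CPM in Nat10 cKO against 95.1 and 97.6 CPM in WT and a 95% interval of the log2 fold change from -0.21 to 0.21. The ring thus had 3 of 7 members lower (42.9%, beside 14.4% of all tested genes). The 4 that did not pass (Psmb1, Psmb2, Psmb3 and Psmb7) ran from -0.25 to -0.0008. The call of Psmb6 ended without WT replicate 2 (-0.45), and that of Psmb4 ended when either WT library was left out (-0.39 and -0.35) and under upper-quartile factors (-0.26). Psmb7 passed without Nat10 cKO replicate 2 (-0.30) and with length and GC offsets (-0.31).

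The promoters of Psmb5 and Psmb6 share a motif. The cap'n'collar factors Nfe2l1 and Nfe2l2 bind antioxidant response elements together with small Maf proteins, and Nfe2l1 is known to raise proteasome gene transcription when proteasome activity drops. The core of that element, TGACNNNGC, was searched on both strands in RefSeq promoter windows (GRCm38.p6, 250 bases before to 50 after each start), which were matched for 36 of 44 members. It occurred in 6 of 37 windows of proteasome members (16.2%), beside 12.4% of 32851 windows of all genes. The catalytic gene Psmb7 was among the members without a matched window, so its promoter was not searched. The 6 matches are shown because they include members called lower and members not called. The motif is in capitals, and each is read 5′ to 3′ on the strand of the gene.
Psmb5: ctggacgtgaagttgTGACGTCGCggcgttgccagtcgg
Psmb6: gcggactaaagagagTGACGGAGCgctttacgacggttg
Psmd9: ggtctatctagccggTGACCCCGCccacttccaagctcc
Psmd12: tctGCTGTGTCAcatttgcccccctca
Psmc6: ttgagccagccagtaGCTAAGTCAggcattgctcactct
Psme4: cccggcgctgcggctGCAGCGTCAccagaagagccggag
The stretches lie, in the same order, at chr14:54618019-54618057, chr11:70525333-70525371, chr5:123228144-123228182, chr11:107479278-107479304, chr14:45329582-45329620 and chr11:30771753-30771791 (GRCm38.p6), with Psmb5 on the minus strand and the others on the plus strand. The first 3 carry the motif on the gene's own strand within the last 50 bases before the start, first base at -47 in Psmb5, -9 in Psmb6 and -31 in Psmd9. The others carry it on the opposite strand, at -247 in Psmd12, -227 in Psmc6 and -7 in Psme4. Psmb5, Psmb6, Psmd9 and Psmd12 were lower in Nat10 cKO, and Psmc6 and Psme4 were not called. These last 2 are the only members whose Nat10 cKO libraries both lay above both WT libraries (background 32.3% of all tested genes). Among members with a window, 4 of 16 called lower and 2 of 19 not called held the motif. A CCAAT box, the site of NF-Y, was in 3 of those 16 and 9 of those 19 (background 37.4% of windows, searched as CCAAT on both strands). Motif matches are descriptions and no test was run on them.

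The full windows of the lower catalytic genes and of Psmc6, the ATPase gene whose groups did not overlap in the other direction, give the context of the motif, which stands in capitals. They are chr14:54617946-54618245 (minus strand), chr11:70525107-70525406 (plus strand) and chr14:45329574-45329873 (plus strand) on GRCm38.p6, per RefSeq, and were not compared with the GRCm39 coordinates of the count table.
Psmb5: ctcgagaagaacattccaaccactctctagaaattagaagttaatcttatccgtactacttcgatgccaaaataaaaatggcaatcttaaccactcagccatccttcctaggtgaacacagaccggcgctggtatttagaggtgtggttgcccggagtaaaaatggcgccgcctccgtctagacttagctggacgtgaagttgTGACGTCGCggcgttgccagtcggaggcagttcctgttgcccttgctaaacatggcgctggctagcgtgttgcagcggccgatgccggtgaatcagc
Psmb6: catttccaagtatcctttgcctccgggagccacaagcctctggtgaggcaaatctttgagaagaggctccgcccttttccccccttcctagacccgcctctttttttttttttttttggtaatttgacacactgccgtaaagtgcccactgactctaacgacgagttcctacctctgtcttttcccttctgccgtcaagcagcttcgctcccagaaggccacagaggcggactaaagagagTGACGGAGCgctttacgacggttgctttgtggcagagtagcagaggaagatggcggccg
Psmc6: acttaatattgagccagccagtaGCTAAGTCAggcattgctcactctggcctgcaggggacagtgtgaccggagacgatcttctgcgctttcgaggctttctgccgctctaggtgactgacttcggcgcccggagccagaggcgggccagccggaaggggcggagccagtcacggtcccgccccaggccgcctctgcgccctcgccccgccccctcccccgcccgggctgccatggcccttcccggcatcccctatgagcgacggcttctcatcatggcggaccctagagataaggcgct

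In the alpha ring, whose subunits form the gate of the barrel, 2 of 8 members fell (25%, beside 14.4% of all tested genes). Psma4 had 142 and 134 CPM in Nat10 cKO, against 200 and 186 CPM in WT (log2 fold change -0.49, SE 0.0979, edgeR adjusted p = 0.00102), and its call held under all 12 alternatives. Psma5 had 104 and 118 CPM in Nat10 cKO, against 134 and 150 CPM in WT (-0.35, SE 0.105, edgeR adjusted p = 0.0178). This call did not survive without WT replicate 2 (-0.27), under upper-quartile factors (-0.25) and with library size only (-0.28). The ring was uneven. Psma3, its highest member by fold, had 113 and 126 CPM in Nat10 cKO, against 112 and 121 CPM in WT (0.03, 95% interval -0.19 to 0.25), and Psma1, Psma2, Psma6 and Psma7 lay between -0.13 and -0.08 without passing. Psma8, which replaces Psma7 in the testis, had 1.03 and 1.11 CPM in Nat10 cKO, against 1.33 and 1.41 CPM in WT (12 and 16 counts, against 13 and 18), and its log2 fold change of -0.35 had a 95% interval from -1.35 to 0.66.

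In the main fit, the ATPase ring of the 19S cap had the largest share of calls of any part, 5 of 6 (83.3%, beside 14.4% of all tested genes). That place was not kept under every alternative. Upper-quartile factors gave 3 of 6 ATPases lower against 2 of 3 of the 19S chaperones, and DESeq2 gave 4 of 6 against 2 of 3. Psmc5 had 99.4 and 98.8 CPM in Nat10 cKO, against 138 and 139 CPM in WT (log2 fold change -0.48, SE 0.0981, edgeR adjusted p = 0.00105). Psmc1 had 236 and 207 CPM in Nat10 cKO, against 307 and 277 CPM in WT (-0.40, edgeR adjusted p = 0.00580). Psmc4 had 85.4 and 106 CPM in Nat10 cKO, against 123 and 127 CPM in WT (-0.38, edgeR adjusted p = 0.0147). All of these genes encode ATPases of 1 heteromeric ring, and in each of them the groups did not overlap. Psmc2 had 109 and 107 CPM in Nat10 cKO, against 138 and 140 CPM in WT (-0.37, edgeR adjusted p = 0.00861). Psmc3, which overlaps Slc39a13 on the opposite strand, had 107 and 107 CPM in Nat10 cKO, against 123 and 137 CPM in WT (-0.28, edgeR adjusted p = 0.0417). The remaining ATPase, Psmc6, stood apart from its ring partners, with 82.8 and 80.7 CPM in Nat10 cKO against 77.4 and 77.9 CPM in WT (0.07, 95% interval -0.14 to 0.29, edgeR adjusted p = 0.633). Only the call of Psmc5 in this ring held under all 12 alternatives. Without WT replicate 1 the ring had 1 lower member, Psmc5, since Psmc1 (-0.33), Psmc2 (-0.38), Psmc3 (-0.36) and Psmc4 (-0.42) lost their calls, and without WT replicate 2 it had 2, Psmc5 and Psmc1. Psmc4 also lost its call without Nat10 cKO replicate 1 (-0.25) and under upper-quartile factors (-0.28). Psmc3 also lost it in DESeq2 (-0.29), under upper-quartile factors (-0.19), with library size only (-0.22) and among genes of at least 10 CPM on average (-0.24).

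**Figure D3:**
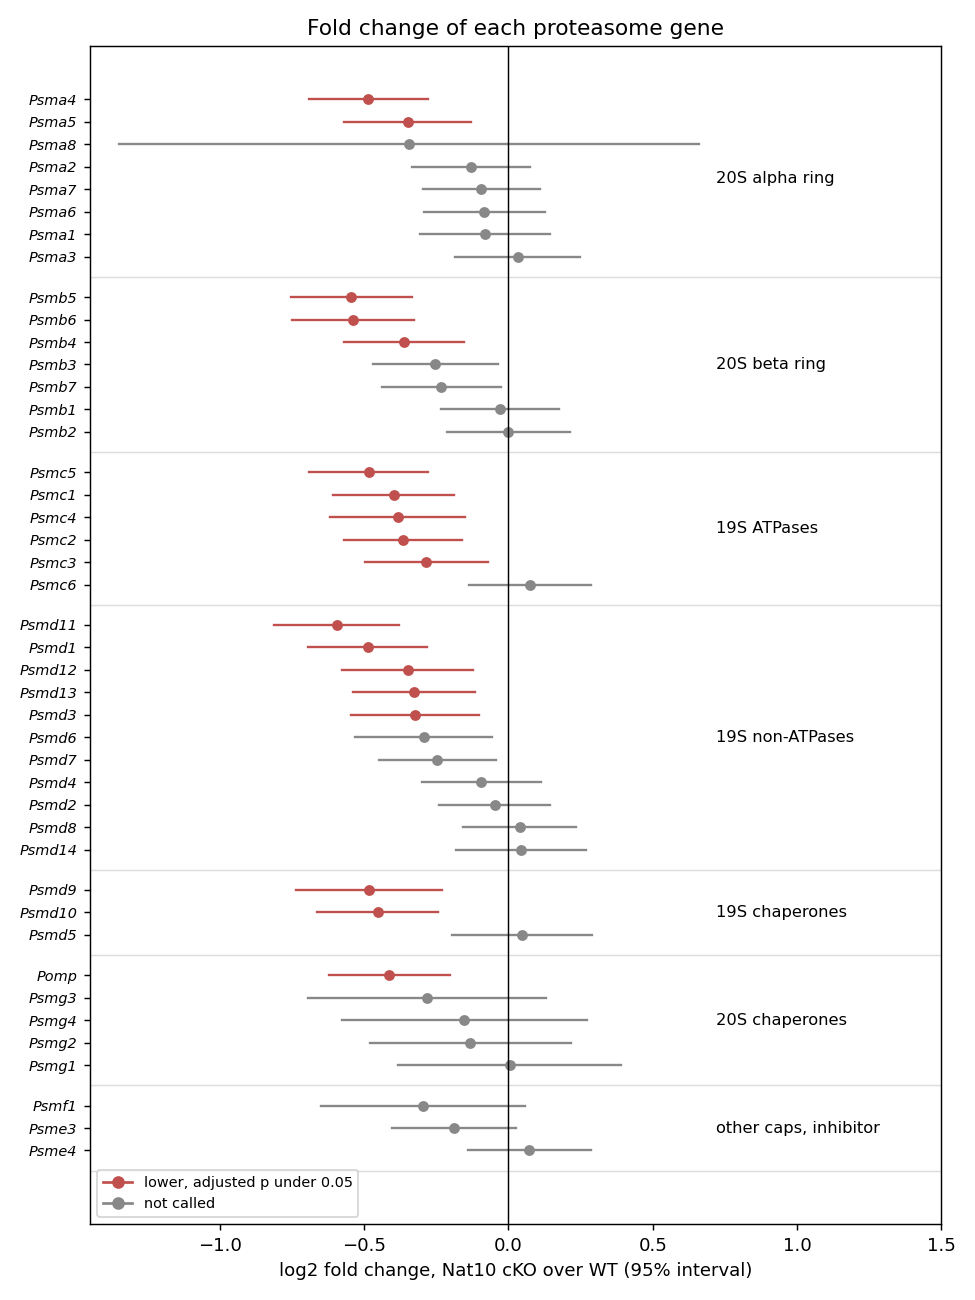
Log2 fold change of Nat10 cKO over WT with its 95% interval (horizontal axis) for the 43 proteasome members, grouped by their place in the particle. Members lower at an adjusted p under 0.05 are red and the others grey. Red points are spread over 6 of the 7 groups, 5 of them in the ATPase ring, and no interval lies wholly above 0.

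Of the 11 non-ATPase subunits of the cap, 5 fell (45.5%, beside 14.4% of all tested genes). Psmd11, a subunit that clamps the cap to the core, showed the largest fall of any member, with 157 and 133 CPM in Nat10 cKO against 224 and 214 CPM in WT (log2 fold change -0.60, SE 0.103, edgeR adjusted p = 0.000249). It lies on chromosome 11 at 80319441 to 80364074 (GRCm39, ENSMUSG00000017428). Psmd1, a large scaffold subunit of the base (chromosome 1, 85992109 to 86066873, ENSMUSG00000026229), had 270 and 234 CPM in Nat10 cKO, against 363 and 344 CPM in WT (-0.49, SE 0.0987, edgeR adjusted p = 0.00105). Both calls held under all 12 alternatives. The lid subunits Psmd12, Psmd13 and Psmd3 fell by less. Psmd12 had 46.7 and 47.4 CPM in Nat10 cKO, against 57.9 and 62.0 CPM in WT (-0.35, edgeR adjusted p = 0.0202). Psmd13 had 99.1 and 109 CPM in Nat10 cKO, against 129 and 132 CPM in WT (-0.33, edgeR adjusted p = 0.0206), and Psmd3 had 79.9 and 92.1 CPM, against 107 and 108 CPM (-0.32, edgeR adjusted p = 0.0279). These 3 calls ended when WT replicate 1 was left out (-0.40, -0.35 and -0.34 in the same order), when WT replicate 2 was left out (-0.31, -0.31 and -0.33) and under upper-quartile factors (-0.25, -0.23 and -0.22). All 3 also ended with library size only (-0.28, -0.26 and -0.26), those of Psmd12 and Psmd3 in DESeq2 (-0.36 and -0.33), and that of Psmd3 without Nat10 cKO replicate 1 (-0.24) and among genes of at least 10 CPM on average (-0.28). Psmd14, the metalloprotease that removes ubiquitin chains from substrates, had 60.5 and 62.4 CPM in Nat10 cKO, against 56.5 and 62.7 CPM in WT (0.04, 95% interval -0.18 to 0.27). The ubiquitin receptor Psmd4, the scaffold Psmd2 and the subunits Psmd6, Psmd7 and Psmd8 did not pass either and ran from -0.29 to 0.04.

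**Figure D4:**
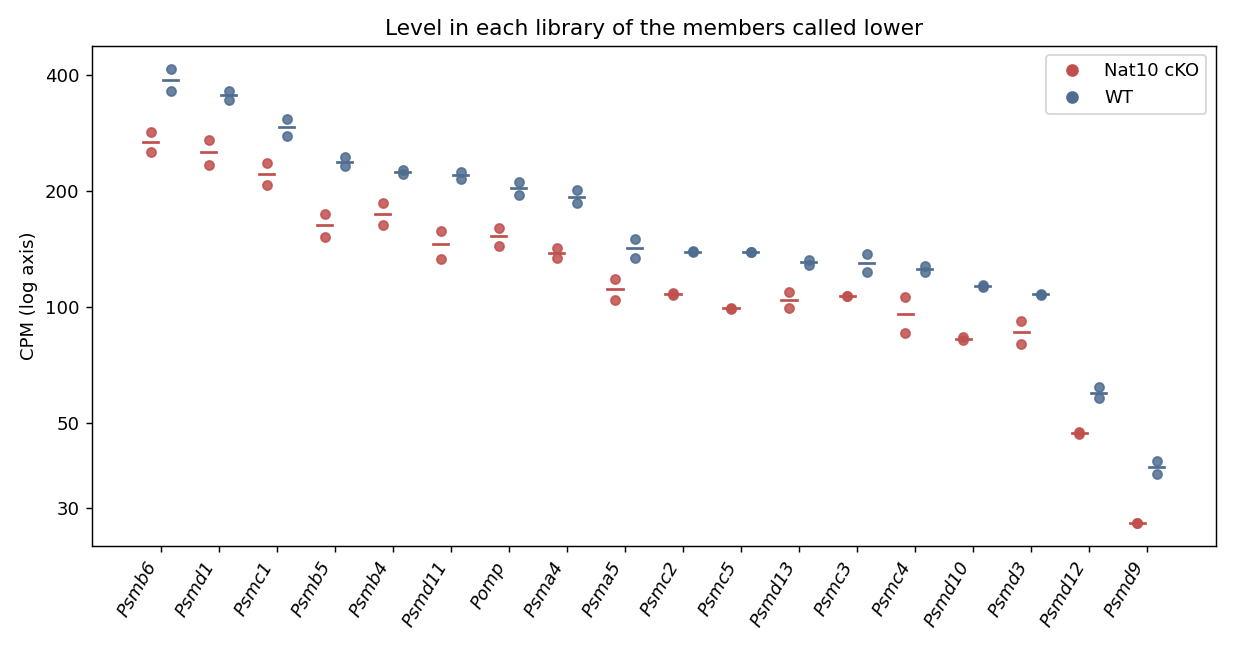
Level in CPM (vertical axis, log scale) of the 18 members called lower, with a point for each library and a bar at the mean of each group, Nat10 cKO in red at the left and WT in blue at the right of each gene. In all 18 genes the Nat10 cKO points lie below the WT points, from Psmb6 at the highest level to Psmd9 at 27.5 and 27.4 CPM against 36.9 and 39.9 CPM.

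Of the 8 assembly chaperones, 3 fell, beside 14.4% of all tested genes. Among those of the 19S base, which escort pairs of ATPases, Psmd9 had 27.5 and 27.4 CPM in Nat10 cKO, against 36.9 and 39.9 CPM in WT (log2 fold change -0.48, SE 0.120, edgeR adjusted p = 0.00521). Psmd10, also known as gankyrin, had 82.1 and 83.4 CPM in Nat10 cKO, against 112 and 114 CPM in WT (-0.45, SE 0.10, edgeR adjusted p = 0.00216). The groups of both were far apart beside their replicate spread. Psmd5, their partner in base assembly, had 42.4 and 46.4 CPM in Nat10 cKO, against 40.6 and 45.3 CPM in WT (0.05, 95% interval -0.19 to 0.29). The calls of Psmd9 (-0.43) and Psmd10 (-0.45) ended without WT replicate 2, with edgeR adjusted p-values of 0.0835 and 0.0543.

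Of the 20S chaperones, Pomp fell and the Psmg genes did not pass. Pomp, the maturation factor that helps the core close and mature, had 144 and 161 CPM in Nat10 cKO, against 211 and 195 CPM in WT (log2 fold change -0.41, SE 0.0997, edgeR adjusted p = 0.00425), and its call ended without WT replicate 1 (-0.36). Psmg1 had 10.5 and 12.7 CPM in Nat10 cKO, against 10.2 and 12.9 CPM in WT (0.0044, 95% interval -0.38 to 0.39). Psmg2, Psmg3 and Psmg4 ran from -0.28 to -0.13. The Psmg proteins form dimers that help build the alpha ring, and their genes stood at 7.24 to 16.7 CPM, with wider intervals than the subunits other than Psma8.

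The alternative caps and the inhibitor gave no call, with 0 lower and 0 higher in edgeR, in DESeq2 and at an unadjusted p under 0.05. Among all tested genes 14.4% were lower and 14.4% higher in edgeR, so no call among 3 genes is close to that share. Psme3, the nuclear activator, had 102 and 95.7 CPM in Nat10 cKO, against 108 and 117 CPM in WT (log2 fold change -0.19, 95% interval -0.40 to 0.02). Psme4, a large cap linked to histone degradation in spermatogenesis, had 81.9 and 79.0 CPM in Nat10 cKO, against 77.1 and 76.0 CPM in WT (0.07, 95% interval -0.14 to 0.29). Psmf1, which binds and can inhibit the core, had 14.5 and 20.3 CPM in Nat10 cKO, against 19.1 and 23.7 CPM in WT (-0.30, 95% interval -0.65 to 0.06), and passed without Nat10 cKO replicate 2 (-0.57). Psmc3ip, the name match that is no proteasome gene, had 10 and 29 counts in Nat10 cKO and 12 and 8 in WT (0.71, 95% interval -0.45 to 1.87).

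Levels per length, CPM divided by the length in kilobases of the longest protein-coding transcript of GENCODE vM21, spanned a wide range although most of these proteins occur in equal numbers in the particle. Psmb6 was highest at 315 and 355 CPM per kb in Nat10 cKO and 454 and 520 in WT, and stayed above every other member in each library. Psma6 (214 and 251 CPM per kb in Nat10 cKO, against 251 and 242 in WT) and Psmb5 (169 and 193 in Nat10 cKO, against 257 and 272 in WT) came next, and their order was reversed between the groups. At the low end of the constitutive particle, Psmd12 had 23.9 and 24.2 CPM per kb in Nat10 cKO and 29.6 and 31.7 in WT. Most chaperones and caps were lower still, with Psmd5 at 9.65 and 10.6 CPM per kb in Nat10 cKO against 9.24 and 10.3 in WT, and Psmf1 at 3.80 and 5.32 against 5.01 and 6.21. Pomp (37.5 and 41.7 CPM per kb, against 54.8 and 50.7) and Psmd10 (57.4 and 58.3, against 78.6 and 79.8) were the chaperones at levels like those of subunits. These members were picked for their place in the order after their values were seen. Across the 42 proteasome members other than Psma8, the log2 fold change had Pearson's r = 0.15 with log2 transcript length and -0.20 with log2 mean CPM, a description over genes that share libraries.

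**Figure D5:**
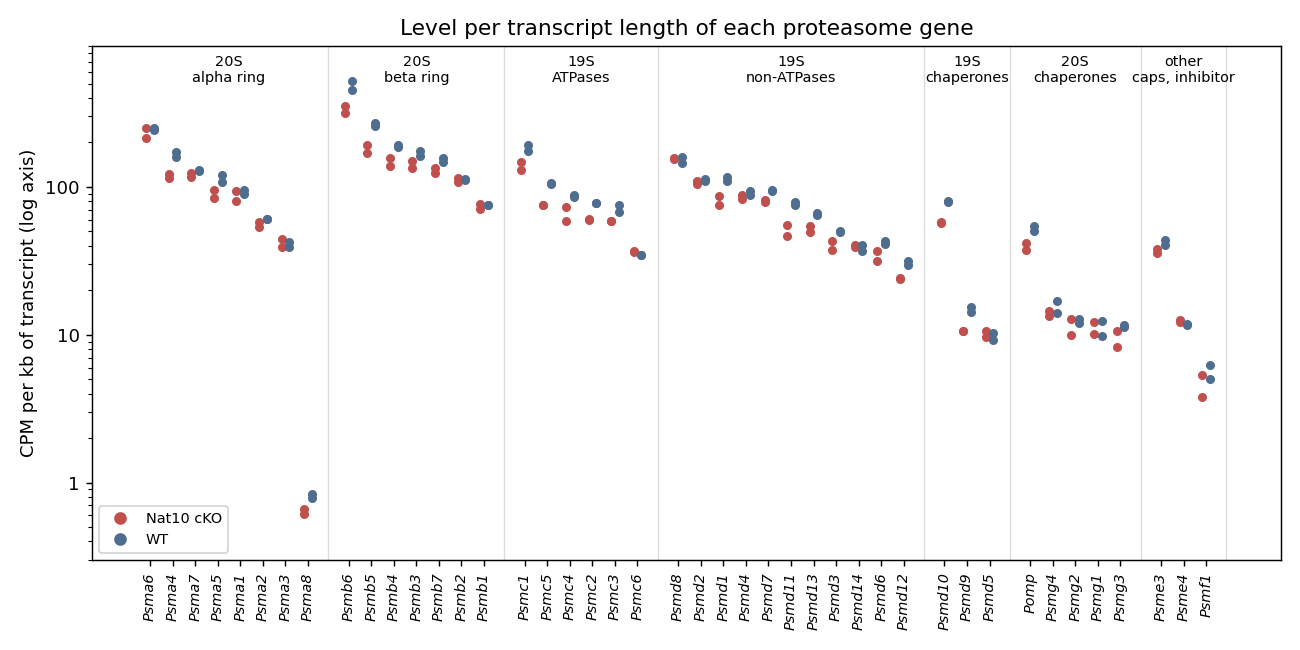
Level in CPM per kb of transcript (vertical axis, log scale) of the 43 proteasome members in each library, Nat10 cKO in red at the left and WT in blue at the right of each gene, ordered within each group from high to low. Core and cap subunits lie between 23.9 and 520 CPM per kb apart from Psma8, which stays under 1, and most chaperones and caps lie below them.

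The immunosubunits and the PA28 cap, measured for comparison, were all called lower, 5 of 5, beside 14.4% of all tested genes. Psmb10, which takes the place of Psmb7, had 71.1 and 77.3 CPM in Nat10 cKO, against 144 and 153 CPM in WT (log2 fold change -1.003, edgeR adjusted p = 7.46e-07), and Psmb8, which takes the place of Psmb5, had 165 and 191 CPM, against 272 and 287 CPM (-0.65, edgeR adjusted p = 8.27e-05). Per length, the ratio of Psmb10 to Psmb7 was 0.438 and 0.436 in Nat10 cKO, against 0.701 and 0.793 in WT. The ratio of Psmb8 to Psmb5 was slightly lower in Nat10 cKO, without overlap, at 0.599 and 0.608 against 0.649 and 0.647 in WT. That of Psmb9 to Psmb6 overlapped, 0.117 and 0.111 in Nat10 cKO against 0.130 and 0.112 in WT. As mean log2 differences between the groups, these ratios moved by -0.10 for Psmb8 to Psmb5, -0.08 for Psmb9 to Psmb6 and -0.77 for Psmb10 to Psmb7. No test was run on these ratios.

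Among 10 factors that bind the proteasome, and beside 14.4% of all tested genes in each direction, 0 rose and 3 fell (median log2 fold change -0.22). These were the zinc finger proteins Zfand2a (46.0 and 43.2 CPM in Nat10 cKO, against 56.3 and 65.6 CPM in WT, -0.45) and Zfand5 (275 and 263, against 341 and 332, -0.32) and the thioredoxin-like Txnl1 (110 and 109, against 131 and 134, -0.27). Sem1, the small lid subunit that the naming rule leaves out, had 126 and 161 CPM in Nat10 cKO, against 179 and 172 CPM in WT (-0.29, edgeR adjusted p = 0.0593). Without WT replicate 2, 0 of the 10 were called, and without WT replicate 1, Zfand2a alone was lower. Under upper-quartile factors the count was 1 lower and 1 higher, with the calls of Zfand5 (-0.22) and Txnl1 (-0.18) ended, and that of Txnl1 also ended in DESeq2 (-0.28), with library size only (-0.21), without a filter on low counts (-0.27), among genes of at least 10 CPM on average (-0.23) and without Nat10 cKO replicate 2 (-0.27). Sem1 passed without a filter on low counts (-0.29), without Nat10 cKO replicate 2 (-0.48) and with length and GC offsets (-0.33), under which 5 of the 10 were lower.

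The E1 enzymes, which activate ubiquitin, went both ways. Uba1, the main E1, had 234 and 221 CPM in Nat10 cKO, against 186 and 187 CPM in WT (log2 fold change 0.29, edgeR adjusted p = 0.0291), whereas Uba6, the other E1, had 38.8 and 30.4 CPM, against 53.5 and 44.3 CPM (-0.50, edgeR adjusted p = 0.00872). The call of Uba1 ended in DESeq2 (0.28), without Nat10 cKO replicate 1 (0.24) and when either WT library was left out (0.27 and 0.29). That of Uba6 ended without WT replicate 1 (-0.37) and without Nat10 cKO replicate 2 (-0.33). Among shuttle receptors that bring ubiquitinated proteins to the proteasome, Ubqln1 had 140 and 133 CPM in Nat10 cKO, against 168 and 163 CPM in WT (-0.28, edgeR adjusted p = 0.0369). It missed the threshold in DESeq2 (-0.29), under upper-quartile factors (-0.18), with library size only (-0.21), among genes of at least 10 CPM on average (-0.24), and when WT replicate 1 (-0.26), WT replicate 2 (-0.31) or Nat10 cKO replicate 2 (-0.24) was left out. Ubqln4 did not pass (-0.11), nor did Ubqln2 (-0.24), which passed without Nat10 cKO replicate 2 (-0.34). Of 7 genes of the p97 segregase, which pulls ubiquitinated proteins out of complexes and membranes, 2 fell and 0 rose (14.4% of all tested genes in each direction). The ATPase Vcp had 534 and 496 CPM in Nat10 cKO, against 673 and 634 CPM in WT (-0.34, edgeR adjusted p = 0.00902), and its cofactor Nsfl1c had 70.4 and 63.8 CPM, against 92.5 and 91.8 CPM (-0.46, edgeR adjusted p = 0.00268). Nploc4 (-0.25) and Ubxn1 (-0.20) did not pass. Both passed with length and GC offsets (-0.26 and -0.23), which gave 4 of 7 lower, and Nploc4 also without Nat10 cKO replicate 1 (-0.27). The call of Vcp ended when either WT library was left out (-0.30 and -0.39) and under upper-quartile factors (-0.25), where 1 gene of the list was higher.

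Genes of the cap'n'collar pathway, which controls proteasome gene transcription, were mostly lower, with 5 of 8 falling and 1 rising (median log2 fold change -0.50). Among all tested genes 14.4% were lower and 14.4% higher. Nfe2l1, the factor named above for proteasome genes, had 460 and 364 CPM in Nat10 cKO, against 616 and 590 CPM in WT (-0.55, SE 0.106, edgeR adjusted p = 0.000671). Its small Maf partners fell too, Mafg to 407 and 347 CPM in Nat10 cKO, against 679 and 611 CPM in WT (-0.78, edgeR adjusted p = 1.29e-05), and Maff to 49.4 and 41.9 CPM, against 70.4 and 82.9 CPM (-0.75, edgeR adjusted p = 9.62e-05). Keap1, the adaptor that marks Nfe2l2 for degradation, had 69.0 and 59.8 CPM in Nat10 cKO, against 107 and 104 CPM in WT (-0.71, edgeR adjusted p = 5.98e-05). The rest were chosen after their values were seen. Mafk fell (-0.44, edgeR adjusted p = 0.00934), which did not hold when WT replicate 2 was left out (-0.41). The repressor Bach1 rose (0.40, edgeR adjusted p = 0.0352), which did not hold in DESeq2 (0.40), when either WT library was left out (0.39 and 0.40) or when Nat10 cKO replicate 1 was left out (0.11). Nfe2l2 did not pass (-0.03, edgeR adjusted p = 0.824) and was above 0 under upper-quartile factors (0.06), library size only (0.03) and the stricter filter (0.0057). Levels of RNA are measured here, and the activity of these factors and of the proteasome was not.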

How the data were processed

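The deposited table holds raw counts per gene for 4 libraries, whole numbers with no normalization, per the file headers. Per the submitters' processing notes, the authors used fastp 0.20.0, STAR 2.7.9a and featureCounts 2.0 on build mm39 (GRCm39). The sources used here do not give the strand setting or the release of the annotation. Of the members, 10 overlap another listed gene, 8 of them on the opposite strand, so reads there could be counted under either gene, as could reads shared with processed pseudogenes. Total counts were 11291993 and 14097638 in Nat10 cKO and 10037338 and 13063821 in WT.

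The 21834 genes were filtered with filterByExpr, which kept 11448. TMM scaling and quasi-likelihood fits (glmQLFit, glmQLFTest) used edgeR 4.0.16 under R 4.3.3. The test was two-sided with group as the only term, and p-values were adjusted over all tested genes by Benjamini-Hochberg. Calls are adjusted p under 0.05. Fold changes are log2 values, Nat10 cKO minus WT, and SEs were taken from the F statistic. CPM are counts scaled with TMM factors. Alternatives were DESeq2 1.42.0, other scalings and filters, each library left out, the replicate number as a block, and offsets for transcript length and GC, the last chosen after seeing the data. Replicates differed by more than counting noise (chi-square per gene 11.2 in Nat10 cKO and 6.16 in WT). The labels do not say whether each library had its own mouse, so the p-values reflect only how much these libraries vary, possibly for technical reasons.

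The members and lists were chosen with earlier results of these data known. Named with values are members that passed, Psmb5, Psmb6 and Psmb7, and the highest and lowest fold in each group of subunits. Up to 4 genes per other list were also named, by smallest p. The macrophage markers were not named by that rule. Psme3 was added after its values were seen. Of the 44 members, 8 had no RefSeq promoter matched and Paaf1 of the bound factors was not analysed here. Some genes of the ubiquitin and shuttle lists, and the counts of those lists, are not reported here.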

Additional observations from a re-analysis of the deposited data

How the results depend on the processing

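Under the 12 alternatives no member was called higher, and the member median minus the median of all tested genes ran from -0.325 to -0.229 (log2). The call of lower held under all 12 for 5 of the 18 members, Psma4, Psmb5, Psmc5, Psmd1 and Psmd11. With upper-quartile factors 11 members (25%, beside 9.7% of all tested genes) were lower and the member median was -0.17 (all genes 0.11). With library size only the median was -0.20 (all genes 0.07). With length and GC offsets it was -0.32. Leaving out 1 library gave 1837 to 3501 called genes, 7 to 22 members lower, 0 higher and medians of -0.30 to -0.23.

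Summed levels as log2 ratios moved most with scaling. With upper-quartile factors they were -0.073 for the alpha ring, -0.24 for the beta ring, -0.24 for the ATPases, -0.13 for the other 19S subunits, -0.23 for the 19S chaperones, -0.26 for the 20S chaperones and -0.0001 for the alternative caps. With library size only they were -0.11 for the alpha ring, -0.27 for the ATPases, -0.16 for the other 19S subunits, -0.27 for the 19S chaperones and -0.031 for the alternative caps. With 1 library left out they ran from -0.23 to -0.13 (alpha ring), -0.43 to -0.27 (beta ring), -0.36 to -0.33 (ATPases), -0.25 to -0.22 (other 19S subunits), -0.37 to -0.30 (19S chaperones), -0.42 to -0.31 (20S chaperones) and -0.14 to -0.064 (alternative caps).

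Of 335 log2 fold changes of the 28 named members under alternatives, 275 kept direction and side of the threshold, 39 lost their call, 4 gained it and 17 changed sign, in members that were not called. Psmb2 was at 0.098 with upper-quartile factors, 0.066 with library size only and 0.040 with a minimum mean of 10 CPM. Psmg1 was at -0.0019 with RLE factors, -0.0001 in DESeq2 and -0.083 with length and GC offsets, and Psmd14 at -0.0025 with those offsets. With 1 library left out, Psma3 ran from -0.056 to 0.10, Psmb2 from -0.053 to 0.037, Psmd14 from -0.035 to 0.11, Psmd5 from -0.032 to 0.12, Psmg1 from -0.15 to 0.18, Psmc3ip from -0.064 to 1.22 and the shuttle gene Ubqln4 from -0.24 to 0.023. Nfe2l2 was at 0.063 with upper-quartile factors, 0.032 with library size only and 0.0057 with the 10 CPM minimum. The causes were not tested. With the replicate number of the titles as a block, 22 members (50%, beside 19% of all tested genes) were lower, 0 were higher and 4301 genes were called. Those 22 held the 18 of the fit without it. Of the genes named with values, Psmb7 (-0.23), Sem1 (-0.30), Nploc4 (-0.25) and Ubxn1 (-0.20) passed with the block and not without it. The labels do not say that equal numbers share an animal or a day, and deviations of same-numbered libraries had r = 0.11 over 11448 genes. Length and GC offsets were chosen after seeing the data.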

Other observations

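Neighbouring families of the ubiquitin system and other large complexes, taken up by gene name after the results were seen, were read beside the proteasome members. Of 30 tested E2 enzymes (Ube2 genes), which pass ubiquitin or its relatives to targets, 3 (10%) were higher and 7 (23.3%) lower in the edgeR test. Among all tested genes 14.4% were higher and 14.4% lower. DESeq2 gave 1 E2 gene higher and 5 lower, beside 1065 higher and 1208 lower (10.6%) of all 11448 tested genes. Ube2l6, the E2 of the interferon-induced modifier Isg15, had 114 and 126 CPM in Nat10 cKO, against 344 and 348 CPM in WT (log2 fold change -1.53, edgeR adjusted p = 1.34e-09). Ube2f, an E2 of Nedd8, had 124 and 140 CPM in Nat10 cKO, against 188 and 193 CPM in WT (-0.53, edgeR adjusted p = 0.000540). Ube2c, which works with the anaphase-promoting complex in mitosis, had 17.9 and 17.2 CPM in Nat10 cKO, against 6.33 and 6.11 CPM in WT (1.49, edgeR adjusted p = 4.79e-06). Of 43 ubiquitin-specific proteases, 5 (11.6%, beside 14.4% of all tested genes) were lower and 0 higher in edgeR. DESeq2 gave 2 lower (beside 10.6% of all tested genes) and 0 higher. An unadjusted edgeR p under 0.05 gave 8 lower and 1 higher, beside 19.4% and 19.8% of all tested genes. Usp18, which removes Isg15, had 45.0 and 48.8 CPM in Nat10 cKO, against 110 and 120 CPM in WT (-1.29, edgeR adjusted p = 4.52e-08).

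The COP9 signalosome, whose subunits are related to those of the 19S lid, had 0 of 10 genes called in edgeR and in DESeq2. Its median log2 fold change was 0.01, with 1 gene lower at an unadjusted p under 0.05. Among all tested genes 28.8% were called in either direction in edgeR. In DESeq2 10.6% were lower, and 19.4% were lower and 19.8% higher at an unadjusted edgeR p under 0.05. In the TCP-1 ring chaperonin, 1 of 8 genes (12.5%, beside 14.4% of all tested genes) was lower and 0 higher (0 higher at an unadjusted p under 0.05 and in DESeq2). The lower gene was Cct3, with 193 and 230 CPM in Nat10 cKO against 295 and 306 CPM in WT (-0.51, edgeR adjusted p = 0.000954). Of 12 eIF3 subunits, 2 (16.7%, beside 14.4% of all tested genes) were higher and 0 lower (1 lower at an unadjusted p under 0.05, 0 in DESeq2). Eif3f was among them, with 218 and 221 CPM in Nat10 cKO against 162 and 178 CPM in WT (0.37, edgeR adjusted p = 0.00752), which did not pass when WT replicate 1 (0.30) or WT replicate 2 (0.43) was left out. Of 8 cullins, 1 (12.5%, beside 14.4% of all tested genes) was higher and 0 lower. That gene was Cul4b, with 17.6 and 15.3 CPM in Nat10 cKO against 8.88 and 10.8 CPM in WT (0.73, edgeR adjusted p = 0.00391). The differences between these families and the proteasome members were not tested.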
